A study of Mus musculus with 59 samples.

Results

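The brown adipose tissue (BAT) response of PTU-fed mice to thyroid hormone (TH) was compared between wild-type (WT) and BATKO mice, 24 h after TH was given. The question was which genes responded differently between genotypes, and by how much. For each gene the BATKO response was subtracted from the WT response, so that a positive interaction marks a larger rise, or a smaller fall, in WT mice. The comparison used 18 of the 59 mice of the series, chosen by genotype and treatment labels and not by any measured value. All were male C57BL/6J mice of 8 to 12 weeks, fed PTU, a drug that blocks the synthesis of thyroid hormone. The WT PTU group (4 mice) and the BATKO PTU group (5 mice) received no hormone. The WT PTU+TH and BATKO PTU+TH groups (4 and 5 mice) had a single intraperitoneal injection of T3 and T4 and were taken after 24 h. The sources used here do not say which allele or Cre line defines BATKO, so no gene could be used to check the genotype labels. RNA of each mouse was sequenced as a separate library, and values are normalised counts of reads per gene. In whole tissue, fewer cells of a type and less RNA per cell cannot be told apart.

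Thyroid hormone acts through the nuclear receptors TRα1 and TRβ, encoded by Thra and Thrb. They bind DNA with retinoid X receptors and recruit corepressors without hormone and coactivators with it. BAT burns fatty acids and glucose to make heat through the uncoupling protein UCP1, and it activates T4 locally through the deiodinase encoded by Dio2. Thyroid hormone is known to act together with noradrenaline on this tissue, and to raise both the making and the burning of lipid.

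WT libraries held 9594449 to 14615534 counts and BATKO libraries 13593987 to 18073627. Ucp1, the defining marker of brown fat, was at 12395 normalised counts or more in every mouse of both genotypes. A hormone score was computed for each mouse from the 200 genes of lowest p in the WT response, as the mean log2 normalised count of the 128 that rose minus that of the 72 that fell. It was between -3.28 and -2.92 in the WT PTU mice and between 0.53 and 0.625 in the WT PTU+TH mice, which the choice of genes fixes. BATKO mice entered that choice through the scaling, the filter and the spread of the common fit, not through their own response, and 3 of their libraries lay with the other treatment. The library labelled BATKO 4, of the PTU group, scored -1.14, while the other 4 PTU libraries scored between -2.41 and -2.02. The libraries labelled BATKO 10 and BATKO 15, of the PTU+TH group, scored -2.07 and -2.02, while the other 3 scored between -1.12 and -1. Samples were kept under their labels, and the counts of calls and the values of most gene groups and genes described at length are also given without these 3 libraries. That exclusion was chosen after the hormone-responsive genes were seen, which favours BATKO changes in such genes. Its values, and any p-value of a BATKO change given without these libraries, are therefore not independent evidence of a BATKO response. Whether labels were exchanged or the hormone did not reach some mice was not tested, and every BATKO value with all mice holds only as far as the labels do.

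**Figure D1:**
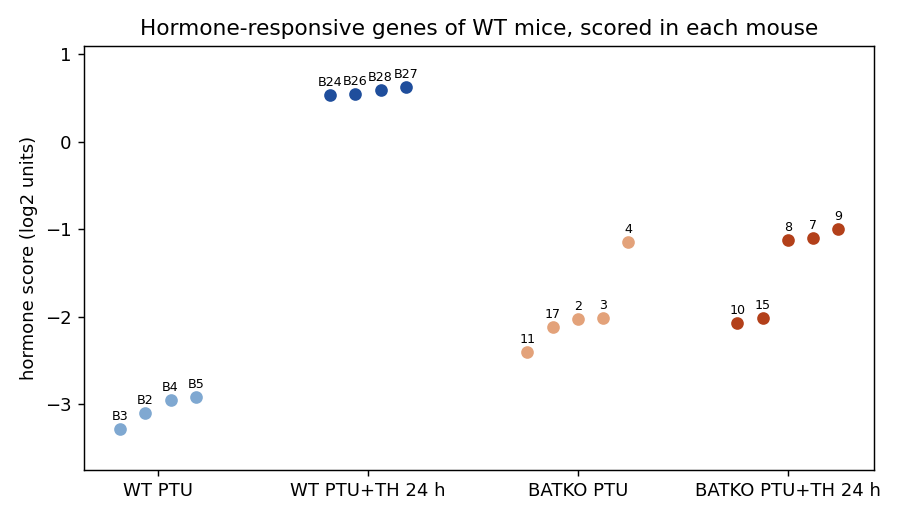
Hormone score (vertical axis, log2 units) of each of the 18 mice, by group, with the mouse number above each point. The WT groups lie far apart because the genes were chosen on them, and BATKO 4 lies with BATKO 7, 8 and 9 while BATKO 10 and 15 lie with the remaining BATKO PTU mice.

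The genotypes also differed in what was counted. Among the genes tested, 295 had a BATKO mean above 50 and at most 3 counts in each of the 8 WT mice, while 1 gene showed the opposite. They held between 18.8% and 22.2% of the counts of a BATKO mouse, and 258 of them (87.5%) were annotated as pseudogenes, against 13.7% of all genes tested. Among the rest were gene copies such as Dynlt1b and Dynlt1c, and 5 protein genes of the mitochondrial genome, mt-Atp6, mt-Atp8, mt-Co3, mt-Nd3 and mt-Nd4l, which alone held between 6.67% and 8.15% of the counts of a BATKO mouse. Only 2 of the 295, Gm6390 and Rpl19-ps6, were called in the interaction. Leaving out all 295 gave 1759 interaction calls. Differences in level between genotypes cannot be told apart from this difference in counting for genes with close copies. The interaction compares responses within each genotype. A pair of clock genes, Arntl and Dbp, was chosen after its values were seen, and most genes differed in level between genotypes (70.3% in PTU-fed mice). Arntl, a core activator of the clock, was between 90.5 and 230.6 in WT mice and between 10.5 and 51.8 in BATKO mice. Dbp, an output of the clock, was between 5.02 and 92.4 in WT mice and between 236 and 1305 in BATKO mice. The groups did not overlap for either gene, and the hour of dissection cannot be told apart from the genotype.

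The response at 24 h depended on genotype for 1737 of 14168 genes tested (12.3%) by the quasi-likelihood test of edgeR, adjusted after Benjamini and Hochberg. The interaction was positive for 1010 genes (7.13%) and negative for 727 (5.13%). In WT mice 2251 genes rose and 1984 fell (29.9% of the genes tested). In BATKO mice edgeR called 0 genes (0%), with 677 at an unadjusted p under 0.05, where 5% of the genes tested is 708.4, and DESeq2 also called 0. Of the genes with a called interaction, 997 rose in WT mice and were not called in BATKO mice, and 709 fell in WT mice and were not called in BATKO mice. The remaining 31 were called in neither genotype, with 13 positive and 18 negative interactions. Over the genes that rose in WT mice the median log2 change was 0.74 in WT and 0.06 in BATKO, and over those that fell it was -0.66 and -0.09. Genes were chosen on the WT values here, so the smaller BATKO value is a description. Over all genes tested the medians were 0.01 and -0.01.

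Without the libraries labelled BATKO 4, 10 and 15, the interaction was called for 632 of 14034 genes (4.5%), with 390 positive and 242 negative, and 617 of them (35.5% of the 1737) had been called with all mice, each with the same sign. The median absolute interaction of the genes called with all mice was 0.91 with these libraries and 0.75 without them. In BATKO mice 90 genes then rose and 53 fell (1.02% of the genes tested), calls that the choice of libraries favours. Of the interaction calls of that fit, 28 genes rose in both genotypes and 12 fell in both, with the larger change in WT. The other calls were 356 that rose in WT alone, 224 that fell in WT alone and 12 called in neither genotype. With or without these libraries WT mice had the larger response in most genes with a called interaction, but the fits differ on whether any gene was called in BATKO mice.

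**Figure D2:**
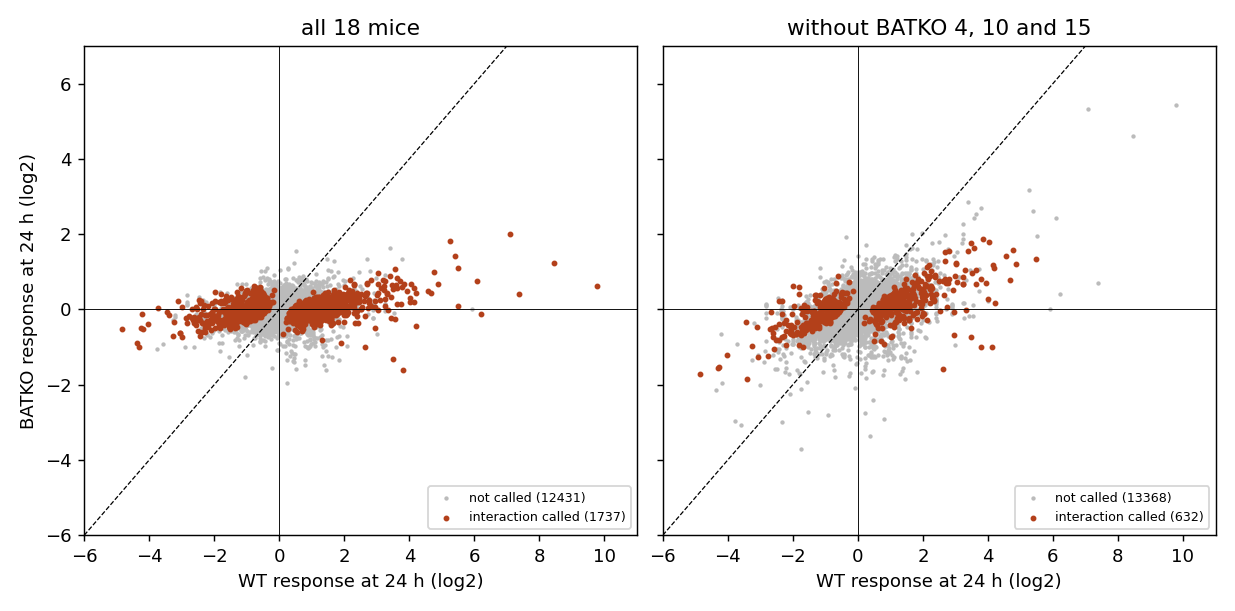
Log2 change at 24 h in WT mice (horizontal axis) against BATKO mice (vertical axis) for genes tested, with all 18 mice on the left and without BATKO 4, 10 and 15 on the right. Red points are genes with a called interaction, 1737 on the left and 632 on the right, and the dashed line marks equal changes. Red points lie below that line where the interaction is positive and above it where it is negative.

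Among the 10 largest positive interactions, 5 remained called without the 3 libraries. The rule picked these genes for their interaction, so groups apart in WT mice and overlapping in BATKO mice are a description. Hr encodes a corepressor that binds thyroid hormone receptors and is a well known target of the hormone. It was at 9.04, 13.2, 13.3 and 18.4 normalised counts in the WT PTU mice and at 275, 281, 322 and 398 in the WT PTU+TH mice. In BATKO PTU mice it was at 10.9, 15, 16.2, 24 and, in the library labelled BATKO 4, 49.3. In BATKO PTU+TH mice it was at 21.2, 51.9 and 60.5, and at 17.4 and 11.4 in BATKO 10 and BATKO 15. The WT change in Hr was 4.57 on the log2 scale and the BATKO change 0.50, an interaction of 4.07 (SE 0.59, edgeR adjusted p = 4.71e-05). Without the 3 libraries the interaction in Hr was 3.14 (edgeR adjusted p = 0.000626), with a BATKO change of 1.43 that was not called (edgeR adjusted p = 0.0564).

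Id2 encodes an inhibitor of basic helix-loop-helix transcription factors. It was between 111 and 166 in the WT PTU mice, and at 4053, 2646, 542 and 2585 in the WT PTU+TH mice, where mouse B27 was far below the others. In BATKO mice Id2 was between 132 and 302 without hormone and between 147 and 378 after it, and these ranges overlapped. Its interaction was 3.58 (SE 0.57, edgeR adjusted p = 0.00014), and 2.97 without the 3 libraries (edgeR adjusted p = 0.00299). Trim67, a ubiquitin ligase of the tripartite motif family, was between 67 and 104 in WT PTU mice and between 1074 and 1898 in WT PTU+TH mice. It was between 70.4 and 166 in BATKO PTU mice and between 94 and 179 in BATKO PTU+TH mice, so that the BATKO groups covered nearly the same range. The interaction in Trim67 was 3.72 (SE 0.36, edgeR adjusted p = 1.01e-07) with all mice and 3.74 without the 3 libraries.

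Slc29a1, an equilibrative nucleoside transporter, followed the same course. It had the third lowest interaction p among genes that rose in WT mice and, with all mice, were not called in BATKO mice. It was between 74.4 and 118 in WT PTU mice, between 1047 and 1260 in WT PTU+TH mice, between 82.7 and 215 in BATKO PTU mice and between 97.9 and 178 in BATKO PTU+TH mice. Its interaction was 3.48 (SE 0.33, edgeR adjusted p = 1.01e-07), and 2.96 without the 3 libraries (edgeR adjusted p = 3.39e-07). Without these libraries Slc29a1 was between 82.7 and 126 in BATKO PTU mice and between 148 and 178 in BATKO PTU+TH mice. The noncoding RNA B430219N15Rik, which lies antisense to Ginm1, rose from a mean of 70.7 ± 9.63 (SD, n = 4) to 1807 ± 254 in WT mice, and was at 54.6 ± 14.4 (n = 5) and 73.9 ± 25.5 in BATKO mice. Its interaction was 4.24 (SE 0.35, edgeR adjusted p = 7.1e-09), and 3.91 without the 3 libraries (edgeR adjusted p = 3.39e-07). The strand setting of the counting is not given in the sources used here, so reads of B430219N15Rik and Ginm1 may not have been separated. The lincRNA A730020M07Rik had an interaction of 3.77 (SE 0.52, edgeR adjusted p = 2.71e-05), and 3.09 without the 3 libraries (edgeR adjusted p = 0.000598). Fndc5, the precursor of the secreted peptide irisin, was between 1.2 and 5.02 in WT PTU mice and between 123 and 375 in WT PTU+TH mice. It was between 0 and 16.7 in BATKO PTU mice and between 0 and 24.3 in BATKO PTU+TH mice, so its values rest on few counts. Its interaction was 5.32 (SE 1.09, edgeR adjusted p = 0.00183), and 3.65 without the 3 libraries, where it was not called (edgeR adjusted p = 0.0555).

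Slco4a1, which encodes an organic anion transporter able to carry thyroid hormone, was a gene whose call rested on the 3 libraries. It was between 1.2 and 3.46 in WT PTU mice and between 369 and 427 in WT PTU+TH mice. In BATKO mice it was at 28.4, 82.3 and 38.4 in BATKO 7, 8 and 9, and at 32.6 in the library labelled BATKO 4. It was at 0.917 and 4.56 in the libraries labelled BATKO 10 and 15, and between 0 and 1.92 in the other PTU mice. The interaction was 5.07 with all mice (SE 1.27, edgeR adjusted p = 0.00823) and 1.77 without the 3 libraries (edgeR adjusted p = 0.502), where the rise in BATKO mice was called (edgeR adjusted p = 7.33e-06). No fold is given for that rise, since the PTU libraries were near 0 counts. Besides Fndc5, a further 3 genes of the 10 rested on counts near 0. The lincRNA Gm32468 was at most at 3 counts in every WT PTU mouse, and after TH it was at least 322-fold higher (between 610 and 1261). In BATKO mice it was at 7.3, 0.885 and 7.68 in BATKO 7, 8 and 9, at 10 in BATKO 4 and at 0 in the other 6. The pseudogene 9030619P08Rik was likewise at least 71.3-fold higher in WT mice after TH and at most at 4.05 in any BATKO mouse. Neither Gm32468 nor 9030619P08Rik was called in the interaction without the 3 libraries (edgeR adjusted p = 0.97 and 0.946). The pseudogene Rpl19-ps6 was between 0 and 3.74 in all WT mice and between 175 and 233 in BATKO mice, so its call rests on a few WT counts and no fold is given.

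Promoters of both transporters are shown because both genes rose in WT mice. Sequences are RefSeq promoters of GRCm38.p6, 300 bases each, with the AGGTCA motif bound by nuclear receptors in capitals on either strand. The first is Slc29a1 at chr17:45593600-45593899 on the minus strand, and the second Slco4a1 at chr2:180460728-180461027 on the plus strand.
Slc29a1: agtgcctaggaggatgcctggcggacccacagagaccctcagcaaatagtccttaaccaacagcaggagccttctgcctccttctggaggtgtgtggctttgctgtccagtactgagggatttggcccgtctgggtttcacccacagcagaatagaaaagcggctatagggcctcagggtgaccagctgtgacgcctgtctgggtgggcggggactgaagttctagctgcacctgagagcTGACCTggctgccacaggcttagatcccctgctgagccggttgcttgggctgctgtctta
Slco4a1: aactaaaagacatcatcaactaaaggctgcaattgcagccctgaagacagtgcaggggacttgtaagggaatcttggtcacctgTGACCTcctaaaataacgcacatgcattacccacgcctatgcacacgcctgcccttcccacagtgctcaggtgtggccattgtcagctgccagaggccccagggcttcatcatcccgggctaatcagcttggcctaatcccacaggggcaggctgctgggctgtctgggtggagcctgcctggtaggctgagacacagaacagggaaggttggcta
In both the motif stands as TGACCT, which is AGGTCA on the other strand, and these start sites were picked from those listed because they hold it. Of 8 promoters listed for Slc29a1, 6 had no such motif, and of 2 listed for Slco4a1, 1 had none. The motif was present in at least 1 promoter of 14.7% of the 9412 tested genes with an entry. The share was 17.3% of 757 genes with a positive interaction and 13% of 515 with a negative one. A pair of exact AGGTCA copies in the same direction and 4 bases apart, the DR4 arrangement, was found in 0 of these promoters. The study searched DR4 elements with a probability matrix, which also takes inexact copies. Exact pairs are rare in windows this short, so nothing is concluded from the 0. A match of letters is no binding site, and the windows leave out distant enhancers.

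**Figure D3:**
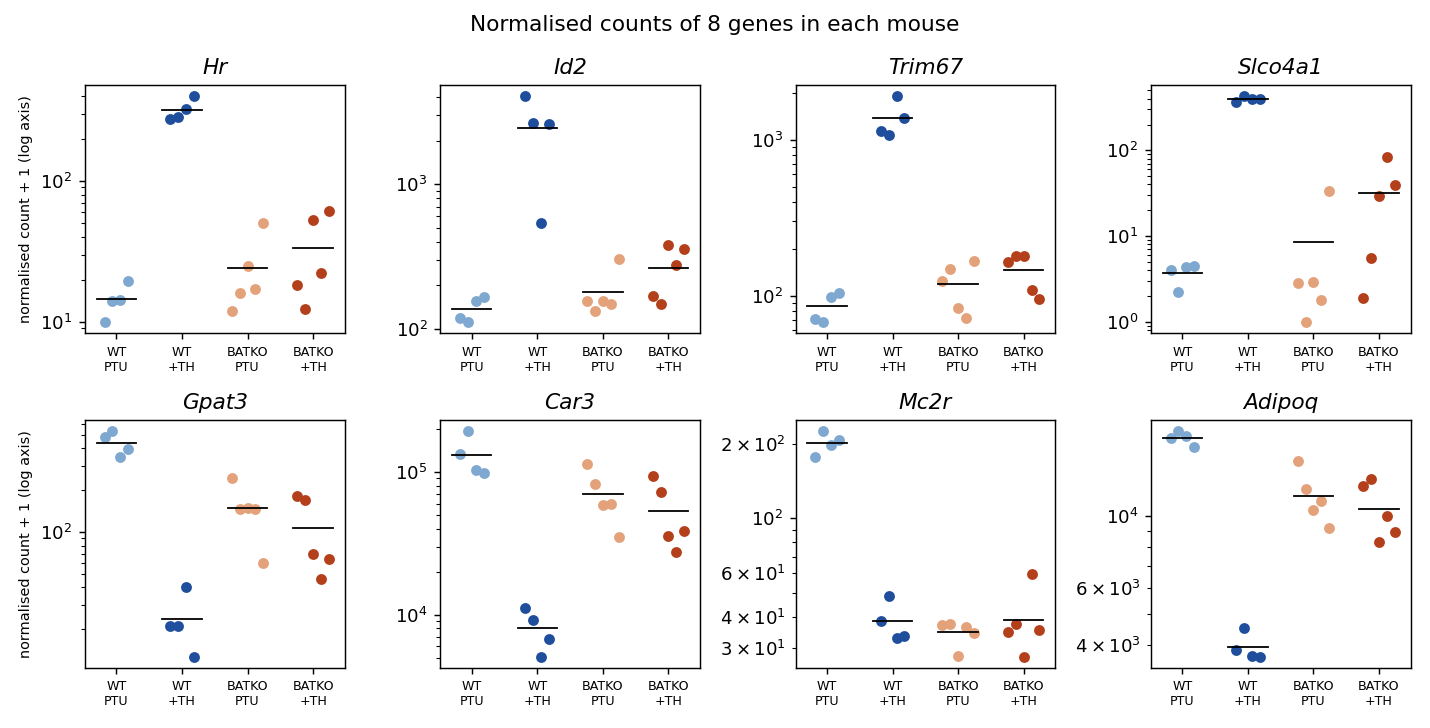
Normalised count plus 1 (vertical axes, log scale) of 8 genes in each mouse, by group, with a line at the group mean. The WT groups are apart in every panel, 4 genes rising and 4 falling, and the BATKO groups overlap in every panel. The genes were picked for their interaction.

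In GENCODE vM21 (GRCm38) Hr lies at chr14:70552212-70573548, Id2 at chr12:25093799-25097140, Trim67 at chr8:124793092-124834713, Gpat3 at chr5:100845713-100899102 and Car3 at chr3:14863512-14872523, all protein-coding, and reads were counted over their exons. Trim67 and Gpat3 share exonic bases with another annotated gene on the same strand, and Gpat3, B3galt2 and Slc29a1 with a gene on the opposite strand, so their counts may hold some reads of those genes.

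The 10 largest negative interactions were in genes that fell in WT mice and, with all mice, were not called in BATKO mice. They included genes of lipid handling and a pair of melanocortin receptors, and 6 of the 10 remained called without the 3 libraries. Gpat3 encodes an enzyme of the first step of triglyceride synthesis. It was at 479, 534, 348 and 395 in WT PTU mice and at 20, 20.1, 38.9 and 11.7 after TH. In BATKO mice it was between 59.4 and 243 without hormone and between 45.2 and 182 after it, and the lowest PTU value was that of BATKO 4. Its interaction was -3.76 (SE 0.54, edgeR adjusted p = 3.93e-05), and -2.73 without the 3 libraries, where Gpat3 fell in BATKO mice too (log2 change -1.53, edgeR adjusted p = 0.0031). Car3, the abundant carbonic anhydrase of fat and muscle, was between 98292 and 193469 in WT PTU mice and between 5091 and 11145 in WT PTU+TH mice. In BATKO mice Car3 was between 34891 and 114163 without hormone and between 27572 and 93345 after it. The interaction in Car3 was -3.65 (SE 0.50, edgeR adjusted p = 2.3e-05), and -2.82 without the 3 libraries (edgeR adjusted p = 0.00026).

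B3galt2, a galactosyltransferase, had an interaction of -3.31 (SE 0.49, edgeR adjusted p = 6.15e-05), and Nabp1, a protein that binds single-stranded DNA, one of -3.24 (SE 0.66, edgeR adjusted p = 0.00169). Nabp1 was between 7052 and 14106 in WT PTU mice and between 817 and 1228 in WT PTU+TH mice. Without the 3 libraries its interaction was -1.56 and its BATKO change -1.84, which was called (edgeR adjusted p = 0.00178). Arxes2, a gene linked to adipocyte differentiation, had an interaction of -2.91 (SE 0.39, edgeR adjusted p = 2.04e-05). B3galt2 and Arxes2 were still called without the 3 libraries, at -2.74 and -2.28. Acot1, a cytosolic acyl-CoA thioesterase with close paralogs, had one of -2.63 (edgeR adjusted p = 0.0332) that was not called without the 3 libraries (edgeR adjusted p = 0.241). Mc2r, the receptor of adrenocorticotropic hormone, was at 176, 224, 196 and 206 in WT PTU mice and at 37.4, 47.7, 32.1 and 32.4 after TH. In BATKO mice Mc2r was between 26.9 and 36.5 without hormone and between 26.8 and 58.4 after it, so that both BATKO groups were near the level of hormone-treated WT mice. The interaction in Mc2r was -2.60 (SE 0.32, edgeR adjusted p = 6.56e-06) and -2.66 without the 3 libraries. Mc5r, a related receptor, had an interaction of -2.56 (edgeR adjusted p = 0.0148) that was not called without them (edgeR adjusted p = 0.38), and neither were Cdsn and Gm13500.

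The counts of called list members below stand beside shares of 12.3% over all genes tested and 4.5% without the 3 libraries. Of 14 known thyroid hormone targets tested, 6 (42.9%) had a positive interaction and 0 a negative one. The list median was 1.06, against 0.02 over all genes tested. Those called were Hr, Gpd2, Ucp3, Desi1, Hcn2 and Trp53inp2, and 4 remained without the 3 libraries. Gpd2, the mitochondrial glycerol-3-phosphate dehydrogenase, was between 7092 and 8918 in WT PTU mice and between 17653 and 24378 in WT PTU+TH mice, with BATKO values between 3332 and 7131 in either treatment. Its interaction was 1.33 (SE 0.25, edgeR adjusted p = 0.000817), and 0.89 without the 3 libraries (edgeR adjusted p = 0.00432). Receptors, coactivators and corepressors had 2 positive and 3 negative calls of 17 (29.4%), and 2 and 1 without the 3 libraries. Among them were Tbl1x, a subunit of corepressor complexes, at -1.11 and the retinoid X receptor Rxrb at 1.15, both on the log2 scale. Thra and Thrb themselves were not called, with interactions of -0.23 (edgeR adjusted p = 0.368) and -0.05 (edgeR adjusted p = 0.923). The transcription factor Klf9, another target of the hormone, was not called either, at 0.65 (SE 0.26, edgeR adjusted p = 0.103). Klf9 rose by 1.31 in WT mice, and without the 3 libraries by 1.12 in BATKO mice (edgeR adjusted p = 2.56e-05), with an interaction of 0.19. The choice of libraries favours such a rise, so this p-value is not independent evidence of a BATKO response.

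Genes of heat production were mixed. Of 22 thermogenesis and brown adipocyte genes, 5 had a positive and 2 a negative interaction, and 1 and 1 without the 3 libraries. The list median was 0.33 with all mice and 0.39 without them. Esrrg, a nuclear receptor that drives oxidative genes, was at 1.38 (SE 0.25, edgeR adjusted p = 0.000511), and Cidea, a lipid droplet protein typical of brown fat, at -0.82 (SE 0.17, edgeR adjusted p = 0.00225). Both remained called without the 3 libraries, and Letmd1, which encodes a mitochondrial membrane protein, at 0.82 did not. Ucp1 was at 71135, 58927, 65712 and 80208 in WT PTU mice and at 100477, 120756, 190915 and 113873 in WT PTU+TH mice, and it rose by 0.93 in WT mice (edgeR adjusted p = 0.0035). In BATKO mice Ucp1 was between 12395 and 22793 without hormone and between 14514 and 31610 after it. The interaction in Ucp1 was 0.75 (SE 0.32, edgeR adjusted p = 0.117) and was not called. Dio2 was between 399 and 3067 in WT PTU mice and between 976 and 8552 in WT PTU+TH mice, with BATKO values between 19.5 and 381. The wide spread left its interaction of 1.5 with an SE of 0.77 (edgeR adjusted p = 0.208). Ppargc1a, a coactivator of mitochondrial genes, and Thrsp, a regulator of lipid synthesis, were not called, at 0.88 (edgeR adjusted p = 0.275) and 0.61 (edgeR adjusted p = 0.211). Creatine and calcium cycling had 4 positive and 0 negative calls of 14. The phosphatase Alpl, at 1.85 with and without the 3 libraries, and the calcium channel Itpr2 remained called without them. Itpr2 was at 1.12 with all mice and at 0.66 without the 3 libraries, where it rose by 0.82 in BATKO mice (edgeR adjusted p = 0.00141). Ckb, creatine kinase B, was at 2.92 with all mice (SE 0.71, edgeR adjusted p = 0.00661) and at 2.56 without them, where it was not called (edgeR adjusted p = 0.0559).

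Genes of lipid storage and uptake had called interactions in 33.3% and 35% of the members of their lists, against 12.3% over all genes tested. Of 21 lipolysis and lipid droplet genes, 5 were negative and 2 positive, and of 20 genes of fatty acid uptake and lipoprotein lipolysis, 5 were negative and 2 positive. The list medians were -0.09 and -0.11 with all mice, and -0.01 and 0.02 without the 3 libraries, where 3 negative calls remained in each list, with 0 and 1 positive. Cidec, a protein of large lipid droplets, fell from between 10026 and 12579 in WT PTU mice to between 1461 and 2813 after TH. It was between 4279 and 7155 and between 3418 and 6459 in the BATKO groups, with an interaction of -1.98 (SE 0.30, edgeR adjusted p = 7.93e-05). The fatty acid transporter Cd36 was at -0.93 (SE 0.16, edgeR adjusted p = 0.000454), the fatty acid binding protein Fabp4 at -0.98 and the acyl-CoA synthetase Acsl1 at -1.44. The 3 genes stayed called without the 3 libraries, as did the carboxylesterase Ces1f at -1.65. Acsl1 was then at -0.86 and fell by 0.94 in BATKO mice too (edgeR adjusted p = 0.00416). Adipoq, which encodes adiponectin, was between 16238 and 18218 in WT PTU mice and between 3695 and 4519 in WT PTU+TH mice, and between 8281 and 14700 over all BATKO mice. Its interaction was -2 (SE 0.20, edgeR adjusted p = 2.5e-07) and -1.72 without the 3 libraries. De novo lipogenesis had 4 positive and 1 negative calls of 21, and 0 and 1 without the 3 libraries. Mlxipl, the glucose-sensing activator of lipogenic genes, was at 1.09 (edgeR adjusted p = 0.00592), and Fads2, a fatty acid desaturase, at 1.21. Triglyceride synthesis had 2 positive and 3 negative calls of 17, and peroxisome genes 2 and 5 of 31, with the fatty acid transporter Abcd3 at 1.07. Without the 3 libraries these were 2 and 1, and 1 and 3. Mitochondrial fatty acid oxidation had 0 positive and 2 negative calls of 24, Acad11 and Acsl1, of which Acsl1 remained.

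Of 24 genes of glucose uptake and glycolysis, 8 (33.3%) were positive and 0 negative, with a median of 0.54, and 3 remained without the 3 libraries. Over all genes tested 12.3% were called, and 4.5% without these libraries. Hk1, a hexokinase, was at 1.65 (SE 0.36, edgeR adjusted p = 0.00273) and Pgk1, phosphoglycerate kinase, at 1.04 (SE 0.23, edgeR adjusted p = 0.00289). Gapdh was at 1.17 (edgeR adjusted p = 0.00447), but its level was between 33.5 and 169 in WT mice and between 1154 and 1727 in BATKO mice, and it has many pseudogene copies. Pgk1 also differed in level, between 209 and 537 in WT mice and between 684 and 1362 in BATKO mice. A related sequence of Pgk1 was among the genes counted in BATKO alone. The calls that remained without the 3 libraries were Hk1, Pgk1 and Gapdh. The mitochondrial carriers of the SLC25 family had 11 positive and 0 negative calls of 36, with Slc25a42, a carrier of coenzyme A, at 1.28 and Slc25a33, a pyrimidine nucleotide carrier, at 1.27. Without the 3 libraries 4 positive and 0 negative calls remained in this family. The TCA cycle had 6 positive and 1 negative calls of 32, and 2 and 1 without the 3 libraries. Idh3a, a subunit of isocitrate dehydrogenase, was at 0.81 (SE 0.16, edgeR adjusted p = 0.00169) and Pdk1, a kinase that restrains pyruvate entry, at -1.07 (SE 0.22, edgeR adjusted p = 0.00225). Mitochondrial ribosomal proteins had 12 positive and 3 negative calls of 77, and 7 and 1 without the 3 libraries. The respiratory chain stayed near or below the share over all genes, with 3 positive and 1 negative calls of 36 complex I subunits and 2 and 0 of 41 subunits of complexes II to V. Without the 3 libraries 1 call remained in complex I and 0 in the others. Of the 13 protein genes of the mitochondrial genome, 5 were at 3 counts or fewer in each WT mouse, so their interaction could not be measured. Of the other 8, edgeR called 0, with a median interaction of -0.24 with all mice and 0.03 without the 3 libraries.

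The cytosolic heat shock proteins had 8 positive and 0 negative calls of 22 (36.4%), with a median of 0.97. The share called over all genes tested was 12.3%, and 4.5% without the 3 libraries. Without these libraries the list median was 0.89, and the small heat shock protein Hspb6, at 1.84 with all mice, was the only one still called. Adipokines and secreted factors had 7 positive and 2 negative calls of 18, and 2 and 1 without the 3 libraries. Those that remained were Adipoq, Vegfa, the vascular growth factor, at 0.79 with all mice, and Kng2, a kininogen, at 2.59 (SE 0.55, edgeR adjusted p = 0.00237). Angiogenesis and hypoxia genes had 5 positive and 1 negative calls of 20, and 2 and 0 without the 3 libraries. Epas1, the hypoxia-inducible factor HIF-2α, was between 2234 and 2961 in WT PTU mice and between 6591 and 11492 in WT PTU+TH mice, and between 2966 and 4578 over all BATKO mice. Its interaction was 1.77 (SE 0.20, edgeR adjusted p = 1.5e-06) and 1.55 without the 3 libraries. Apln, which encodes the vessel-acting peptide apelin, was at 3.44 (SE 0.89, edgeR adjusted p = 0.0103), but at 2.07 without the 3 libraries (edgeR adjusted p = 0.235), where its rise in BATKO mice, from a few counts, was called (edgeR adjusted p = 0.00449). Among 33 collagen and matrix genes only Loxl1 and Lox, enzymes that cross-link collagen and elastin, were called, at 3.38 and 0.78. Both remained called without the 3 libraries, at 2.24 and 1.00, and Loxl1 then rose by 1.80 in BATKO mice (edgeR adjusted p = 0.000261). Vim, the intermediate filament protein vimentin, fell from between 4332 and 5640 to between 624 and 923 in WT mice and was between 4896 and 10508 over all BATKO mice, with an interaction of -2.27 (SE 0.26, edgeR adjusted p = 2.79e-06). Without the 3 libraries Vim was between 7838 and 10508 in BATKO PTU mice and between 4896 and 5880 in BATKO PTU+TH mice. Of 27 interferon-stimulated genes 0 were called, and of 76 cytosolic ribosomal proteins 3 (3.95%), against 12.3% over all genes tested. Pseudogene copies of ribosomal protein genes were among the genes counted in BATKO alone. Rpl10a was between 13.2 and 59.3 in WT mice and between 237 and 361 in BATKO mice. The low count of this list was therefore not read as a result. The lists were drawn up with earlier results of these data known, so their counts describe them and test nothing.

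**Figure D4:**
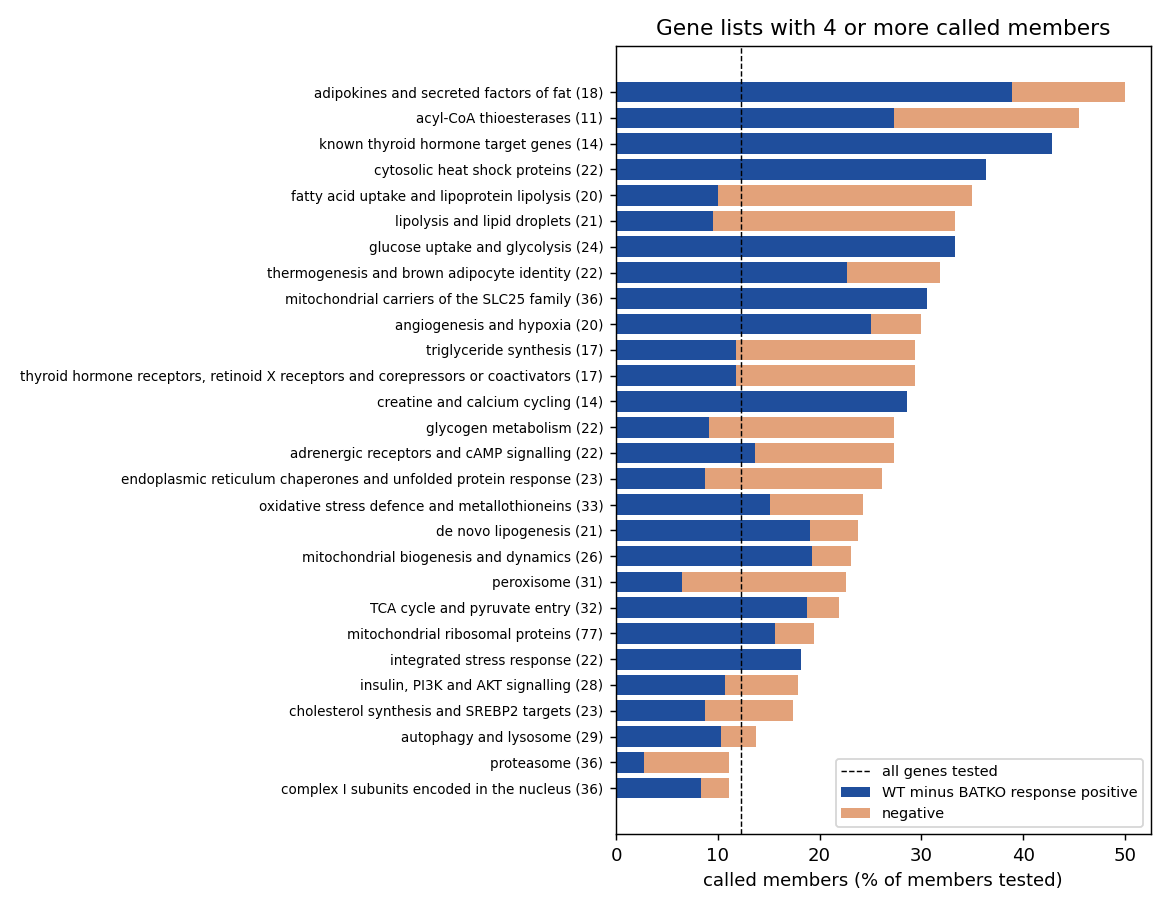
Share of tested members with a called interaction (horizontal axis, percent) for the 28 lists with 4 or more called members, with the number tested in brackets. Blue is the positive part and orange the negative part, and the dashed line is the 12.3% over all genes tested.

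Few genes depended on genotype without a called change in either. The growth arrest RNA Gas5, host of small nucleolar RNAs, was at 110 ± 4.57 (SD, n = 4) before and 98.6 ± 10.2 after TH in WT mice, and at 73.1 ± 9.39 and 104 ± 6.05 (n = 5) in BATKO mice, with an interaction of -0.67 (SE 0.17, edgeR adjusted p = 0.0101). The acyltransferase Zdhhc9 was at 0.55 (SE 0.14, edgeR adjusted p = 0.0113). Both were still called without the 3 libraries. Sox17, an endothelial transcription factor, at -0.96, Ndufa2, a complex I subunit, at -0.42, the acetyltransferase adaptor Tada2b at 0.56 and the protease Htra1 at 0.47 were not. Sox17 was at 254 in BATKO 10 and between 102 and 142 in the other BATKO PTU+TH mice.

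The levels of BATKO and WT mice differed for most genes in either treatment, by 9959 genes in PTU-fed mice (70.3%) and 9871 after TH (69.7%). These counts include the genes counted in BATKO alone, and are no measure of the hormone response.

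Summed marker lists were compared by an exact permutation test of treatment within each genotype, two-sided and adjusted over 13 measures. None passed, but with so few mice a response in WT mice alone could hardly pass this test, so the sums are given as values. The summed level of 8 adipocyte markers shared by white fat was between 9799 and 10970 CPM (counts scaled to a fixed library size) in WT PTU mice and between 4755 and 4982 after TH, against 9653 to 11020 and 8144 to 13040 in BATKO mice (exact p = 0.0194, adjusted p = 0.252). The WT groups did not overlap. Without the 3 libraries the BATKO sums were between 9761 and 11020 CPM before and between 8144 and 8628 CPM after TH. Of these 8 genes, 1 positive and 4 negative interactions were called, and Adipoq, Cidec and Fabp4, described above, are members of this sum. Brown adipocyte markers were between 7009 and 9131 CPM and between 9648 and 16800 CPM in the WT groups, and between 2020 and 4253 CPM over all BATKO mice (exact p = 0.0387, adjusted p = 0.252). This sum is mostly Ucp1, and other members went the other way in WT mice, with the mean of Cidea at 15280 before and 8449 after TH and that of Elovl3, a fatty acid elongase, at 5962 and 1251 normalised counts. Cidea was the only one of these 8 markers called in the interaction. Skeletal muscle markers varied widely within each group. Their sum was between 102 and 790.4 CPM in WT PTU mice and between 325 and 1342 CPM after TH (means 436 and 868), and between 43.4 and 1033 CPM and between 40.2 and 386 CPM in the BATKO groups (means 324 and 199.8, exact p = 0.11, adjusted p = 0.343). The median interaction of the 12 muscle markers was 1.76, and 2.04 without the 3 libraries. BATKO 3, the mouse with 1033 CPM, also had the highest Hspb6 and Des of all BATKO mice, at 455 and 695 normalised counts. The part of muscle in these results was not tested. Of single markers, 1 of 3 B cell markers tested was called, Ighm, whose mean went from 72 to 361 in WT mice and was at 54.6 and 58.3 in BATKO mice. Of 7 smooth muscle and pericyte markers 1 was called, Des, whose mean went from 315 to 743 in WT mice and was at 385 and 348 in BATKO mice. Smooth muscle genes of the same list were lower or close after TH in WT mice, with Acta2 at 489 and 417, Myh11 at 123 and 93.4 and Tagln at 243 and 176. Both Ighm and Des remained called without the 3 libraries. Of 9 endothelial, 9 fibroblast, 9 macrophage and 12 skeletal muscle markers tested, edgeR called 0. The share called over all genes tested was 12.3%. The mitochondrial share of counts was between 40.6% and 55.7% in WT mice and between 40% and 51.3% in BATKO mice (exact p = 0.249, adjusted p = 0.397). The shares of the genotypes cannot be set against each other, since 5 mitochondrial protein genes were counted in BATKO mice alone.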

How the data were processed

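Total RNA from BAT was extracted with Trizol and sequenced after library preparation with the total RNA SENSE kit. The authors aligned the reads on GRCm38 (mm10) with Bowtie (Bowtie2 2.3.2.2 in the submitters' processing notes, which also name DESeq2), removed reads of low alignment quality, used htseqcount to assign reads to genes, and deposited the raw counts. The annotation and the strand setting are not given in the sources used here. Of 55341 rows, 14 whose symbols had been turned into dates were left out (at most 0.0374% of the counts of a mouse). 0 columns were left unmatched to a sample.

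Counts of the 30 mice of the hormone experiment were fitted together in edgeR (version 4.0.16, R 4.3.3, limma 3.58.1), by the quasi-likelihood test, with TMM normalization, a minimum mean normalized count of 10 and Benjamini-Hochberg adjustment at 0.05, with no fold limit. Normalised counts were scaled to the mean library. SEs were derived from the F statistic, and a floor of 3 counts was used for genes near 0, which covers counting error only. Alternatives were DESeq2 (version 1.42.0), RLE factors, other filters, fewer mice and each mouse left out. Named genes were the 10 largest interactions in each direction (mean above 50), up to 3 called genes of lowest p in each list and in each response class, and 8 genes of hormone action, 140 in all; Dynlt1b, Dynlt1c, Gm6390, Arntl, Dbp and Hcn2 were named after their values were seen. The members, the lists and the exclusion of 3 libraries were chosen with earlier results of these data known. Counts of the 18 mice were compared in all 153 pairs, and chi-square per degree of freedom was at least 7.63, so no pair agreed within sampling noise. The labels give each mouse its own sample, and p-values measure the spread between these mice. Positions, overlaps and biotypes came from GENCODE vM21. Some genes that the rule names are not reported here.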

Additional observations from a re-analysis of the deposited data

Results flagged for a closer look

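The response at 24 h differed between the genotypes for 1737 genes by the interaction term. Single mice stood apart from their group, with a gap to the next mouse that was a large part of the whole range, in 13 of 115 groups of values tested by Dixon's test, where chance gives about 1 in 20, or 5.75. In the library labelled BATKO 4, the gap was 1 of the range for Gm32468 and 9030619P08Rik, 0.941 for Slco4a1 and 0.865 for Id2, each above the other BATKO PTU mice. Mouse WT B5 had the only counts of 9030619P08Rik among WT PTU mice (ratio 1). Where the ratio was 1 the other mice of the group were at 0, so any count would give it, and these groups are among the 13. Other mice apart were WT B27 for Acot1 (0.938), WT B4 for Cdsn (0.904), WT B3 for B3galt2 (0.836), BATKO 17 for Dio2 (0.799), BATKO 10 for Ppargc1a (0.797), BATKO 15 for Ucp1 (0.776) and Mc5r (0.768), and BATKO 7 for Rpl19-ps6 (0.712).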

How the results depend on the processing

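Without BATKO 4, BATKO 10 and BATKO 15, an exclusion chosen after seeing the data, the interaction was called for 632 genes (390 positive, 242 negative), the BATKO response for 143, and 79 genes of the pathway lists. The classes then held 356 genes that rose and 224 that fell in WT alone, 12 called in neither genotype and 40 in both. Of the 133 named genes with a called interaction, 82 remained called, and 104 did so with any single mouse left out. Genes called in neither genotype numbered 50 with DESeq2 and 18 in the fit of the 18 mice alone. The other alternatives left the remaining counts within 1.5 times. With each mouse left out in turn, interaction calls ranged from 1204 (without WT B3) to 2097 (without BATKO 11), with 709 to 1240 positive and 495 to 857 negative. WT calls ranged from 3242 to 4289 and BATKO calls from 0 to 1. Classes ranged from 699 to 1192 for rises and 481 to 814 for falls in WT alone, and 14 to 91 in neither genotype, and list genes from 145 to 230. The interaction of Thrb, not called, lay between -0.144 and 0.0823, positive without WT B24, BATKO 2, BATKO 3 or BATKO 8. Those of neutrophil markers (-0.383 CPM) and of fibroblast and preadipocyte markers (7.92 CPM) changed sign without the 3 libraries, and were not called. No paired analysis was possible because treated and control mice of a genotype share no number. The cause of these changes was not tested.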
